A study of Saccharomyces cerevisiae with 4 samples.

Results

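The 10 genes described here encode abundant proteins of the yeast cell wall, with CCW12 as the leading gene: CCW12, CCW14, CWP1, CWP2, TIP1, SED1, PIR1, HSP150, CIS3 and GAS1. They were set beside the 6418 nuclear genes that do not encode ribosomal RNA, of which 6190 were measured, the 10 wall genes among them. For each gene every listed nucleosome was taken whose midpoint lay between 700 bp upstream of the open reading frame (ORF) start and the ORF end. These windows held 92 of the 57674 nucleosomes listed for cells labelled nhp6ab and 89 of the 60557 listed for wild-type (WT) cells, and no nucleosome fell into more than 1 window. The set was chosen by measured values, the ratio of nhp6ab to WT counts at CCW12, so that the ratios below are given as a description.

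The study profiled acetylation of lysine 16 of histone H4 (H4K16ac) by chromatin immunoprecipitation and sequencing (ChIP-seq) in exponentially growing Saccharomyces cerevisiae in rich glucose medium (YPD). Cells labelled nhp6ab, a name built from NHP6A and NHP6B, the paralogous genes for small DNA-bending proteins of the HMGB type, were compared with cells labelled WT. Both groups were cross-linked with formaldehyde. The labels name 4 libraries, 2 per genotype, but each genotype has 1 column of counts, so the spread between replicates is unknown and no test between genotypes was made. The labels give neither the structure of the alleles nor the strain background.

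The yeast wall consists of glucan and chitin covered by mannoproteins. Mannoproteins of the glycosylphosphatidylinositol (GPI) type are moved from a lipid anchor onto glucan, while those of the Pir type, named for proteins with internal repeats, are bound to glucan through an alkali-sensitive link. H4K16ac keeps nucleosome arrays open and is removed by Sir2 at silenced loci. Nhp6 proteins bend DNA and act with the histone chaperone FACT on nucleosomes. Genes for major wall proteins are among the strongly transcribed genes of growing yeast.

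The tables held 20293261 counts for nhp6ab and 26526939 for WT, and the median listed nucleosome had 354 counts in nhp6ab and 442 in WT. Counts are compared as counts per 1000000 of the table total (CPM), and ratios are log2 values of nhp6ab over WT with 95% intervals that cover counting error only. A gene or nucleosome is called higher or lower when it differs at least 1.5-fold and its interval excludes 0. Chromosome XII as a whole stood 0.38 higher in nhp6ab on the log2 scale in the median of its genes, so ratios of CCW12 and CCW14, which lie on it, are given after this median (and, for gene parts and single nucleosomes, the median of the same quantity) was subtracted. No input or total histone library was used here, so fewer nucleosomes, fewer cells that carry one and less acetylation per nucleosome cannot be told apart. The ORFs that name the mutant had 260 counts in nhp6ab and 592 in WT (NHP6A, 57.4% of the scaled WT count) and 564 in nhp6ab and 882 in WT (NHP6B, 83.6%). Neither was without reads, so each direction below is that of the tables as labelled.

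CCW12 stood apart from the other 9 genes, with a ratio of −2.46 (95% interval −2.64 to −2.28), or 5.49-fold lower in nhp6ab. It was the single gene of the 10 called lower, where 3.41% of all genes measured were called lower, and none was called higher, where 0.921% of all genes were. The median over the 10 genes was −0.17, against −0.039 over all genes (quartiles −0.18 and 0.075). SED1 came next at −0.46 (−0.54 to −0.38), inside the 1.5-fold limit of 0.58. CIS3 (−0.31), HSP150 (−0.24), GAS1 (−0.18), PIR1 (−0.17), CWP2 (−0.12), TIP1 (−0.082), CCW14 (−0.018) and CWP1 (0.012) followed in that order. In this order the intervals of the neighbours CCW12 and SED1 were separate, whereas those of all other neighbours overlapped. A ratio below 0 was found in 9 of the 10 genes and in 58.6% of all genes.

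**Figure D1:**
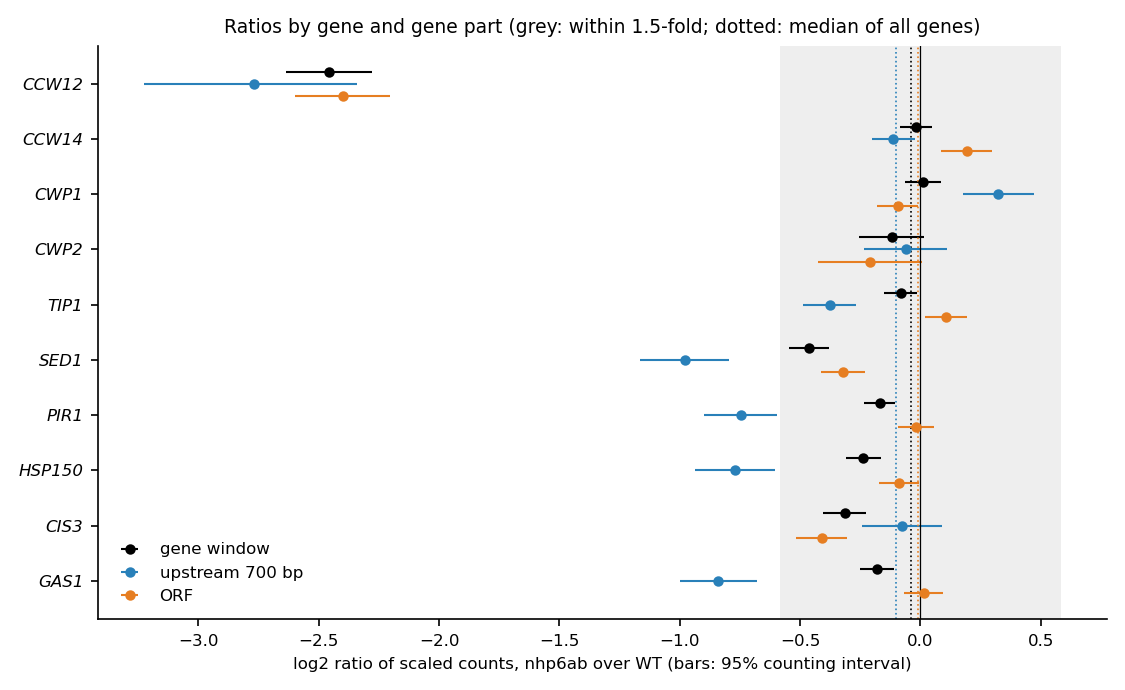
Log2 ratios of scaled counts (horizontal axis), nhp6ab over WT, for each gene (vertical axis) over the whole window, the 700 bp upstream and the ORF, with 95% counting intervals as bars. CCW12 lies between −2.77 and −2.40 in every part, while the other genes lie between −0.46 and 0.012 over the whole window, with upstream values of SED1, PIR1, HSP150 and GAS1 between −0.98 and −0.75.

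CCW12 (YLR110C, R64 chromosome XII, 369697 to 370098, Crick strand) encodes a small GPI mannoprotein that the wall needs for its strength. Its window held 302 counts over 7 nucleosomes in nhp6ab, against 1667 counts over 6 nucleosomes in WT. Without centring on chromosome XII the ratio was −2.08, or 23.7% of the scaled WT count. It had the fifth lowest summed ratio among 5827 protein-coding genes measured, and the lowest of them by the mean count per listed nucleosome (−2.74).

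Over the short CCW12 ORF, 3 nucleosomes were listed in each table. In nhp6ab they lay 32, 185 and 317 bp inside the ORF and had 69, 84 and 99 counts, or 3.40, 4.14 and 4.88 CPM. In WT they lay at 19, 131 and 296 bp and had 329, 538 and 438 counts, or 12.4, 20.3 and 16.5 CPM. The WT nucleosomes were ordinary ones, at percentiles 19.1, 79.4 and 49.0 of all counts in the WT table. The nhp6ab nucleosomes stood at percentiles 1.13, 1.59 and 2.08 of their own table, so every nucleosome over the coding sequence was among the lowest there. The ORF ratio was −2.40 (−2.60 to −2.20).

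Upstream of CCW12 the counts were low in both tables and lower in nhp6ab. The 4 nucleosomes listed there in nhp6ab had 27, 1, 8 and 14 counts at 630, 538, 337 and 209 bp before the start. The 3 listed in WT had 103, 123 and 136 counts at 585, 291 and 172 bp. In nhp6ab, the nucleosome with 1 count is among 4 in the whole table with 1 count or fewer, and 14 nucleosomes had 8 or fewer. The upstream ratio was −2.77 (−3.23 to −2.34). Matched within 50 bp, the WT nucleosomes 585, 291 and 172 bp upstream had ratios of −1.98 (−2.65 to −1.36), −3.99 (−5.24 to −2.97) and −3.33 (−4.24 to −2.54), while those 19 and 296 bp inside the ORF had −2.30 and −2.20. Their nhp6ab partners upstream were placed 37 to 46 bp farther from the ORF, which is at the edge of what was matched.

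Low counts in nhp6ab reached beyond the CCW12 window upstream and ended soon after the ORF. Past the 3' end, the nucleosome 618 bp from the ORF start in nhp6ab had 125 counts (6.16 CPM) and its WT counterpart at 620 bp had 135 (5.09 CPM), and at 831 bp in nhp6ab and 835 bp in WT the counts were 366 and 365. On the other side, nhp6ab had 55 and 38 counts (2.71 and 1.87 CPM) at 889 and 738 bp upstream, and WT had 114 and 125 (4.30 and 4.71 CPM) at 845 and 726 bp. The nhp6ab nucleosome 1196 bp upstream had 150 counts and the WT nucleosome 1198 bp upstream had 215. In bins of 500 bp centred on the chromosome median, the ratio was −1.49 from 1000 to 500 bp upstream, −3.55 in the last 500 bp before the start and −2.36 in the first 500 bp after it. From 500 to 1000 bp after the start it was −0.14. The bins at both ends of the 5000 bp examined were also low, at −0.73 from 5000 to 4500 bp upstream, with 1 nucleosome listed in nhp6ab and 2 in WT, and −1.0 from 4500 to 5000 bp after the start, with 1 in nhp6ab and 3 in WT. The remaining bins of the flanks varied too, between −0.53 from 1500 to 2000 bp after the start and 0.74 from 3000 to 2500 bp upstream. The next ORF downstream, AHP1, for a thiol peroxidase, lies end to end with CCW12 at a distance of 385 bp and had 1965 counts in nhp6ab and 1945 in WT, a ratio of −0.012 (−0.10 to 0.079). Upstream, the reading frame YLR111W lies within the CCW12 window and had 9 counts in nhp6ab and 103 in WT. YLR112W beyond it had 254 counts over 3 nucleosomes in nhp6ab and 239 over 2 in WT, a ratio of 0.061 (−0.20 to 0.32). Its nhp6ab nucleosomes include the low ones 889 and 738 bp upstream. The third, 1095 bp upstream with 161 counts, had no WT nucleosome within 50 bp, so the near-equal sum does not mark an end of the low counts.

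**Figure D2:**
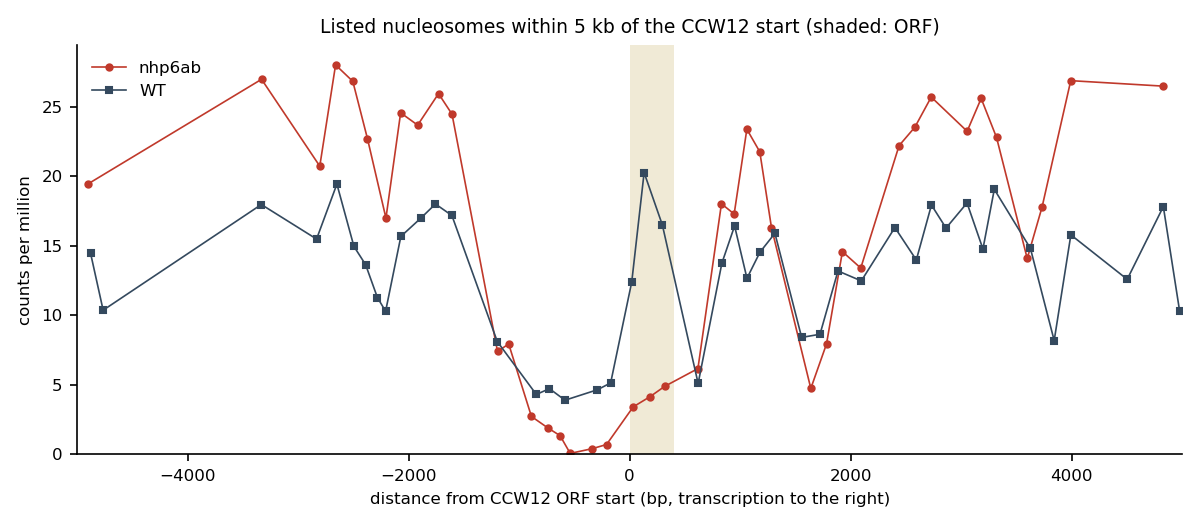
CPM of the table total (vertical axis) of each listed nucleosome against its distance from the CCW12 ORF start (horizontal axis, bp), for nhp6ab and WT, without centring on chromosome XII. The nhp6ab points lie between 0.049 and 4.88 CPM from 889 bp upstream to 317 bp inside the ORF, where WT points run between 3.88 and 20.3, and both tables are alike again near 620 bp after the start.

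SED1 (YDR077W, chromosome IV, 600793 to 601809), which encodes a major structural GPI mannoprotein of stressed and stationary cells, was the gene nearest to the limit for a call. The window held 1894 counts over 11 nucleosomes in nhp6ab and 3412 over 10 in WT. By the mean count per nucleosome the ratio was −0.60, which passes the limit. By that measure SED1 and CCW12 were called lower, where 1.62% of all genes were. Upstream, nhp6ab had 33, 35, 76 and 194 counts at 602, 492, 379 and 175 bp before the ORF, and WT had 175, 291 and 405 counts at 558, 361 and 197 bp. In both tables counts thus grew toward the ORF, from a far lower start in nhp6ab. The matched ratios climbed with them, at −2.02 (−2.60 to −1.48), −1.55 (−1.93 to −1.18) and −0.68 (−0.93 to −0.42). Over the ORF all 7 matched nucleosomes lay below 0, between −0.52 and −0.064. Of the 10 SED1 pairs, upstream ones included, 8 had an interval wholly below 0, where 10203 of all 51169 matched nucleosomes did. The upstream ratio was −0.98 (−1.16 to −0.80), and that of the ORF −0.32 (−0.41 to −0.23).

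CWP2 (YKL096W-A, chromosome XI, 259253 to 259531), for a small major GPI mannoprotein, showed low counts at some upstream nucleosomes and not at others. Its ORF is so short that 1 nucleosome was listed over it in each table, with 298 counts in nhp6ab and 450 in WT, a ratio of −0.21 (−0.42 to 0.0062). Upstream, nhp6ab had 68, 37, 137 and 237 counts at 673, 330, 231 and 135 bp. WT had 165, 190 and 298 counts at 624, 289 and 155 bp. The farthest matched nucleosome had a ratio of −0.89 (−1.32 to −0.48), the middle one −1.97 (−2.52 to −1.46) and the one nearest to the ORF 0.056 (−0.20 to 0.31). The nhp6ab nucleosome at 231 bp had no partner in WT, so the summed upstream ratio came to −0.061 (−0.23 to 0.11). The value of the window depended on its edge: with any overlapping nucleosome counted it was −0.90, which would be called lower.

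CWP1 (YKL096W, chromosome XI, 261132 to 261851), a GPI mannoprotein gene 1600 bp downstream of CWP2 and on the same strand, had nearly equal scaled counts, 2660 over 9 nucleosomes in nhp6ab and 3449 over 8 in WT. Its 8 matched nucleosomes ranged from −0.43 to 0.41. The upstream ratio of 0.32 (0.18 to 0.47) went with 4 nucleosomes in nhp6ab and 3 in WT, the extra one 34 bp before the ORF with 212 counts, and the ratio of means there was −0.091.

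CCW14 (YLR390W-A, chromosome XII, 903724 to 904440) encodes a GPI mannoprotein of the inner wall and shares the chromosome of CCW12. It had 3539 counts over 9 nucleosomes in nhp6ab and 3605 over 8 in WT, a ratio of −0.018 (−0.085 to 0.050), or 0.36 without centring. The highest nucleosomes of its window lay upstream, with 673 counts in nhp6ab at 347 bp and 719 in WT at 525 bp. Both have midpoints inside the neighbouring gene ECM19, whose ORF lies 319 bp upstream on the same strand. Its 6 matched nucleosomes lay between −0.56 and 0.10, all within 1.5-fold, unlike those of CCW12 on the same chromosome.

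TIP1 (YBR067C, chromosome II, 372103 to 372735), a GPI mannoprotein gene induced by temperature shock, had 3032 counts in nhp6ab and 4195 in WT over 8 nucleosomes each. Upstream, 3 nucleosomes were listed in nhp6ab and 4 in WT, with a summed ratio of −0.38 (−0.49 to −0.27) and a ratio of means of 0.038. Inside the ORF the matched ratios went from 0.22 (0.026 to 0.40) at the start to −0.53 (−0.73 to −0.33) at 335 bp. The WT count was highest at 477 bp, with 719 counts, where the nhp6ab partner had 409.

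**Figure D3:**
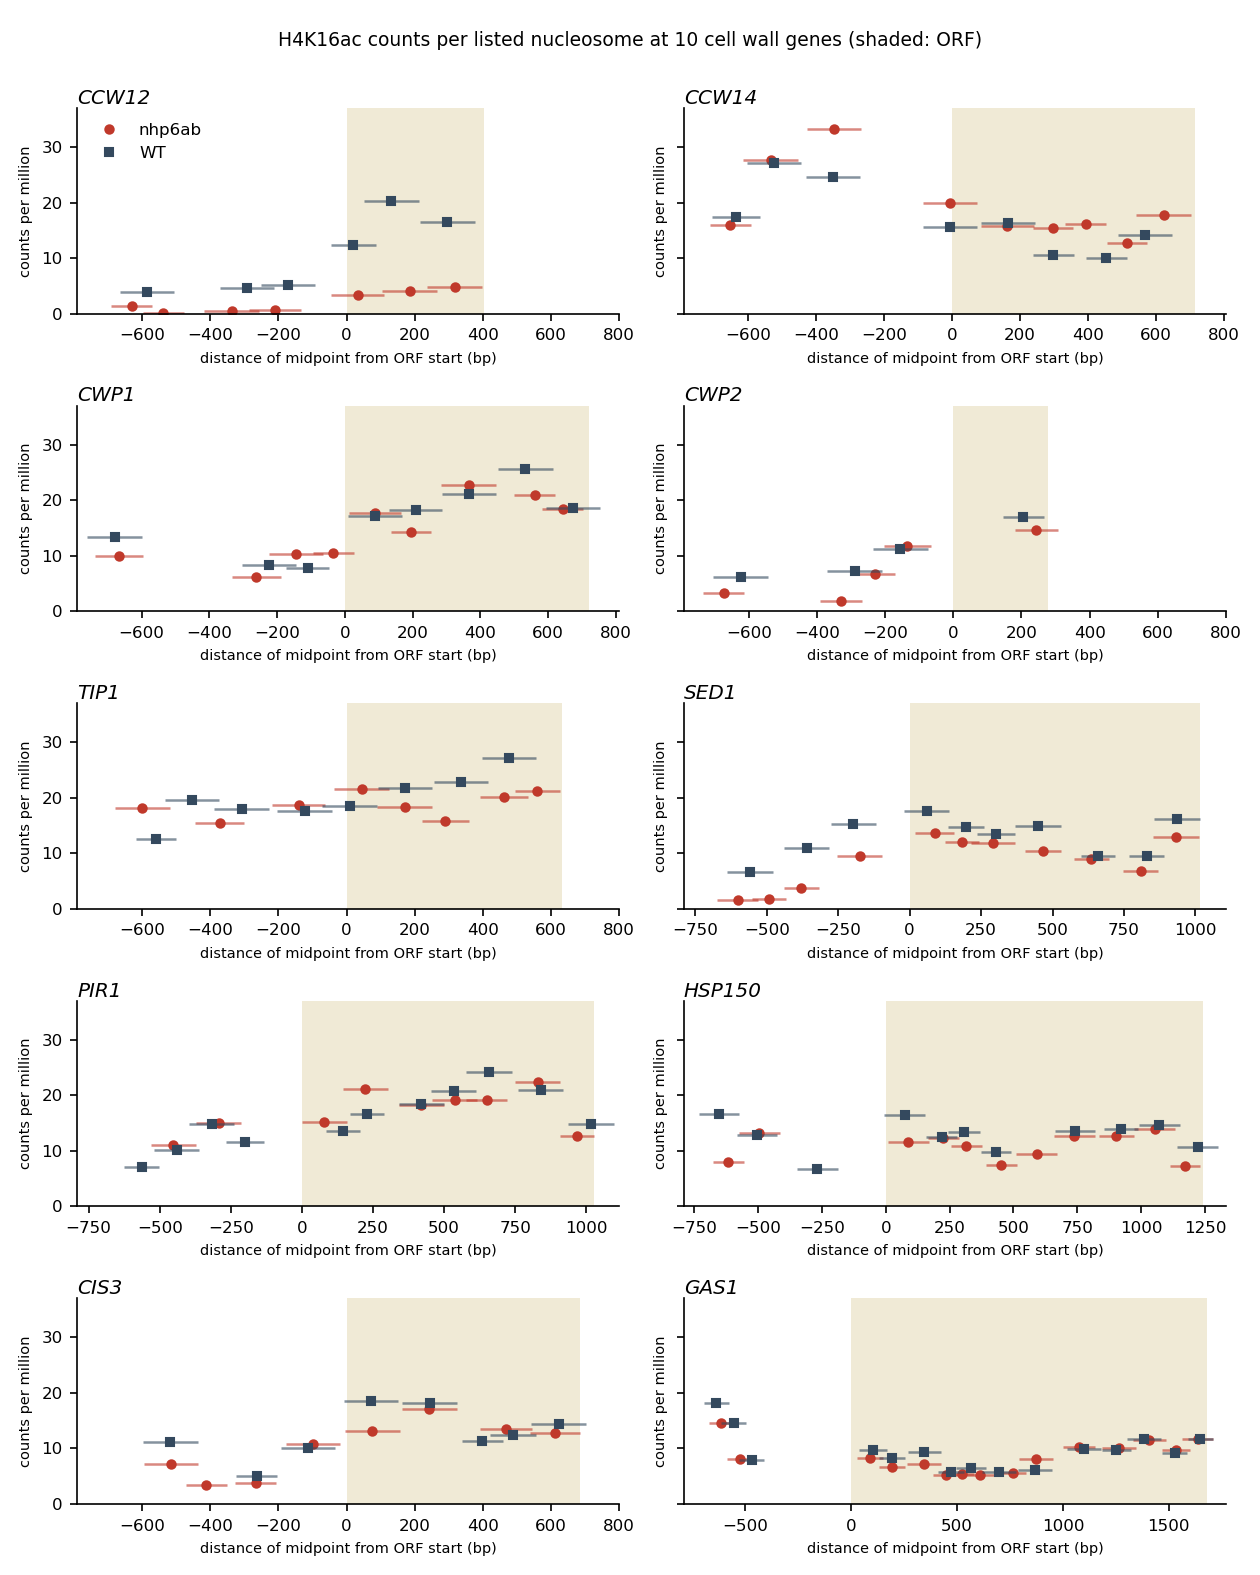
CPM of the table total (vertical axis) of every listed nucleosome against the distance of its midpoint from the ORF start (horizontal axis, bp) at each gene. Bars give the width of the listed interval and shading the ORF. At CCW12 all nhp6ab points lie at or under 4.88 CPM, and at SED1 the upstream nhp6ab points climb between 1.63 and 9.56 CPM toward the ORF, where the WT points climb between 6.60 and 15.3.

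Among the Pir genes, HSP150 and CIS3 lie end to end on chromosome X, 574 bp apart on opposite strands, and PIR1 on chromosome XI faces its relative PIR3 across 1581 bp. None of the 3 was called, with ratios between −0.31 and −0.17. Pir genes resemble each other and hold internal repeats, so the placement of some of their reads is uncertain. HSP150 (YJL159W, 120449 to 121690), for a heat-induced Pir protein, had 2431 counts in nhp6ab and 3744 in WT over 11 nucleosomes each. Its upstream part had 163 and 269 counts in nhp6ab at 616 and 495 bp, and 443, 343 and 177 counts in WT at 653, 504 and 268 bp. The farthest pair stood at −1.06 (−1.32 to −0.79) and the next at 0.036 (−0.20 to 0.27). The WT nucleosome at 268 bp had no nhp6ab counterpart, and the longest stretch with no listed nucleosome around the start was 422 bp in nhp6ab and 181 bp in WT. Over the ORF all 8 matched nucleosomes lay below 0, between −0.55 and −0.018. Of the 10 HSP150 pairs, upstream ones included, 5 had an interval wholly below 0, where 10203 of all 51169 matched nucleosomes did.

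CIS3 (YJL158C, 122265 to 122948), also called PIR4, had 1655 counts in nhp6ab and 2690 in WT over 8 nucleosomes each. Its first nucleosome inside the ORF had 265 counts in nhp6ab and 490 in WT, a ratio of −0.50 (−0.72 to −0.28). Upstream, the pair near 515 bp had 145 counts in nhp6ab and 298 in WT (−0.65, interval −0.95 to −0.36), which is called lower, and the pair nearest to the ORF had 219 and 270 (0.084). An additional nhp6ab nucleosome with 71 counts, 411 bp upstream, lay mostly in a stretch that was unlisted in WT, and the summed upstream ratio was −0.076. The ORF of the gene upstream of CIS3, FAR1, for an inhibitor of the cyclin-dependent kinase in mating, stood at 0.40 (0.34 to 0.47).

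PIR1 (YKL164C, 141794 to 142819) had 3126 counts over 9 nucleosomes in nhp6ab and 4596 over 11 in WT. Its upstream ratio was −0.75 (−0.90 to −0.60) by the sum and 0.25 by the mean, since 2 nucleosomes were listed in nhp6ab and 4 in WT. The WT nucleosomes without a partner lay 564 and 200 bp upstream and had 187 and 310 counts, while the 2 matched ones stood at 0.13 and 0.011. Over the ORF the 6 matched nucleosomes ranged from −0.34 to 0.34. PIR3 had 3341 counts in nhp6ab and 4117 in WT, over 9 nucleosomes each, and a ratio of 0.085 (0.019 to 0.15).

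GAS1 (YMR307W, chromosome XIII, 887003 to 888682) encodes the GPI-anchored glucanosyltransferase that elongates glucan chains, and is the one enzyme among the 10. It had 2585 counts in nhp6ab and 3828 in WT over 15 nucleosomes each. Both tables showed a trough inside the ORF, with 105 to 114 counts from 446 to 765 bp in nhp6ab and 151 to 173 counts from 472 to 870 bp in WT. Toward the 3' end the counts were higher again, at 236 counts in nhp6ab and 310 in WT for the last nucleosome. Of its 11 matched ORF nucleosomes, the ratios ran from −0.36 to 0.38 with a median of −0.021, and the ORF as a whole stood at 0.013 (−0.069 to 0.096). Upstream the ratio was −0.84 (−1.0 to −0.68) by the sum and −0.25 by the mean, with 2 nucleosomes listed in nhp6ab and 3 in WT. Of the matched ones, that 556 bp upstream in WT, inside the end of the neighbouring gene FKS3, stood at −0.85 (−1.13 to −0.59).

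Upstream parts and ORFs of the 10 genes differed in how many were called, and this depended on the measure. By the sum, the upstream part was called lower in 5 genes, CCW12, SED1, GAS1, HSP150 and PIR1, where 15.2% of upstream parts of all genes were called lower, and higher in none, where 3.15% were. The median upstream ratio of the 10 was −0.56, against −0.10 for all genes, and their median ORF ratio was −0.092, against −0.0088. By the mean count per nucleosome 2 of these, CCW12 and SED1, passed the limit, where 5.75% of all upstream parts did. The medians by the mean were alike, at −0.22 upstream and −0.19 in the ORF, against −0.051 upstream and 0.026 in the ORF for all genes. All 10 ORF ratios lay below 0 by the mean, and 7 of the 10 by the sum. No share over all genes was taken for these counts. The ORF was called lower in 1 gene, CCW12, where 4.46% of all ORFs were, and higher in none, where 2.02% were. The upstream ratio lay below the ORF ratio in 7 of the 10 genes, against 59.7% of all genes with counts in both parts. By the mean it did so in 6, against 61.8%. The counts over 700 bp are near the share of all genes. With 500 bp upstream it did so in 5, where GAS1 had no ratio because no nhp6ab nucleosome was listed there. No share over all genes was taken for that window.

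Single nucleosomes were compared next. In all, 77 nucleosomes of the 10 genes could be matched, with a median ratio of −0.25 against 0.017 for all 51169 matched nucleosomes. Ratios lay below 0 in 58 of the 77 and in 24226 of the 51169. Of the 77, 13 were called lower, where 3.12% of all matched nucleosomes were, and none was called higher, where 2.32% were. The midpoints of 8 of the 13 pairs lay 31 to 49 bp apart, and matching within 25 bp left 5 called lower among 56. No share over all pairs was taken at 25 bp. CCW12 held 5 of the 13, SED1 3, CWP2 2, and HSP150, CIS3 and GAS1 1 each, and without CCW12 8 of 72 were left. Upstream, 11 of 27 were called lower, against 7.57% over all genes, and inside ORFs 2 of 50, both in CCW12, against 1.86%. Without CCW12, whose ratio chose the set, 8 of 24 upstream and 0 of 48 inside ORFs were called lower. Divided at 250 bp, a limit chosen after the values were seen, 9 of the 19 pairs farther upstream were called lower, against 7.90% over all genes. Of the 8 nearer the ORF 2 were, at CCW12 and SED1, against 6.71%. Without CCW12 these counts were 7 of 17 and 1 of 7. Neighbouring nucleosomes of a gene share reads and sequence and are not independent of each other.

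**Figure D4:**
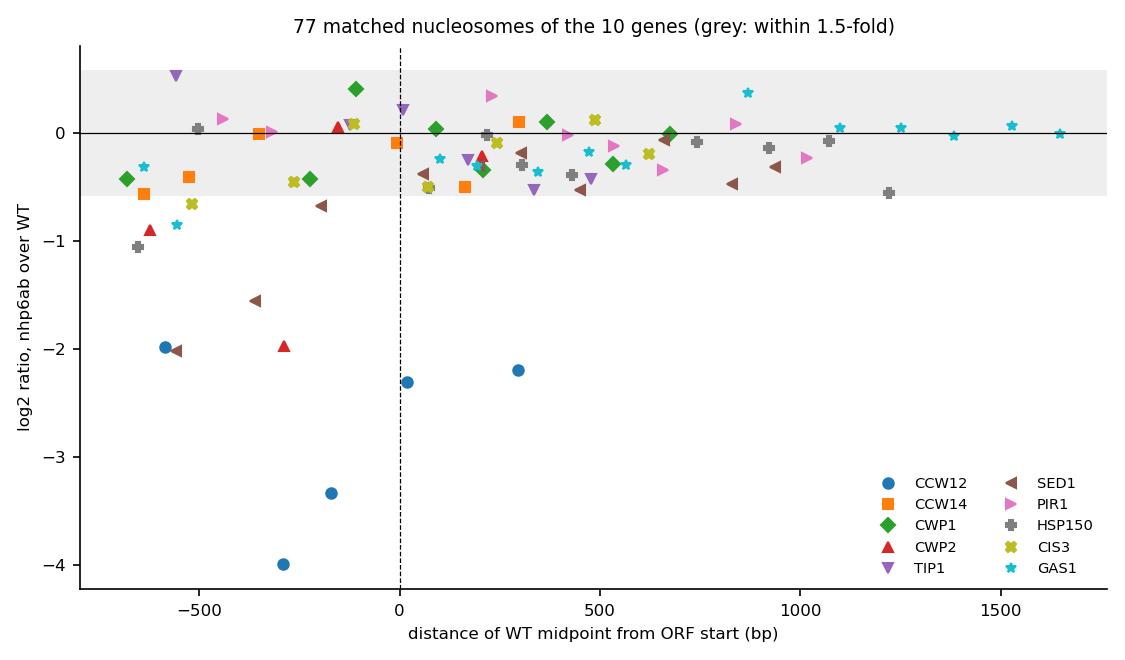
Log2 ratio of each matched nucleosome, nhp6ab over WT (vertical axis), against the distance of the WT midpoint from the ORF start (horizontal axis, bp), with a symbol per gene. Outside the grey band of 1.5-fold lie 13 points, all on the low side, 11 of them upstream and 2 inside the CCW12 ORF.

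Most of the 10 genes had fewer counts per listed base pair than the median gene in both tables, which without an input does not measure acetylation per nucleosome. Levels are counts per base pair of listed nucleosome divided by the same value over the whole table, a scale on which genes can be compared. They were not centred on chromosome XII, so the nhp6ab levels of CCW12 and CCW14 include the higher level of that chromosome. The median level of the 10 was 0.62 in nhp6ab and 0.80 in WT, against 1.01 in nhp6ab and 1.03 in WT over all genes. In nhp6ab the order was CCW12 (0.12), CWP2 (0.52), GAS1 (0.52), SED1 (0.54), CIS3 (0.58), HSP150 (0.66), CWP1 (0.90), PIR1 (0.94), TIP1 (1.06) and CCW14 (1.15). In WT it was CCW12 (0.61), CWP2 (0.63), GAS1 (0.64), CIS3 (0.78), HSP150 (0.79), SED1 (0.80), CWP1 (0.95), PIR1 (0.98), CCW14 (1.04) and TIP1 (1.16). The first 6 genes of both orders are the same, and each of these 6 stood below percentile 10 of all genes in nhp6ab and below percentile 20 in WT. CCW12 stood at percentile 0.339 of all genes in nhp6ab and 5.18 in WT, while CWP2 stood at 4.26 in nhp6ab and 5.70 in WT. Over all 6190 genes, the WT level (mean count per nucleosome) and the ratio had a Spearman rho of 0.12, a description across genes that share both tables.

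The nucleosomes at the wall genes were also listed with other widths. In the tables, which list intervals of 120 to 160 bp, the full 160 bp was given to 31 of the 92 wall gene nucleosomes in nhp6ab (33.7%) and 50 of the 89 in WT (56.2%). Over the whole tables the shares were 42.7% in nhp6ab and 57.6% in WT. The shortest width, 120 bp, was found in 32.6% of wall gene nucleosomes in nhp6ab and 19.1% in WT, against 18.3% and 15.3% of all nucleosomes in nhp6ab and WT. Midpoints of matched nucleosomes differed by a median of 15 bp at the wall genes, upstream by 22 bp and inside ORFs by 13 bp, against 11 bp over all pairs. No partner was found for 15 nucleosomes in nhp6ab and 12 in WT. The longest unlisted stretch around the start was at least 50 bp longer in nhp6ab in 1 gene (HSP150), where 29.4% of all genes showed this. It was at least 50 bp shorter in 1 (CIS3, 26 bp in nhp6ab and 198 bp in WT), where 10.7% did. The CIS3 difference comes from the window's edge. Its WT stretch lay beyond the nucleosome 517 bp upstream. The nhp6ab stretch beyond the nucleosome 515 bp upstream had its midpoint outside the window and was not counted.

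Other genes of the wall, taken from 4 lists of 61 names, mostly had ratios near 0. All 61 matched and were measured, 3 were called lower (against 3.41% of all genes) and 1 higher (against 0.921%), and their median was −0.029. Of the 15 other GPI and related wall protein genes, 10 lay below 0, and HPF1, for a heavily glycosylated wall protein, was called higher at 0.71 (0.66 to 0.75), with 7717 counts in nhp6ab and 6185 in WT. Lowest of them was SRL1, a mannoprotein gene, at −0.47 (−0.59 to −0.34), or 0.018 by the mean, with 5 nucleosomes in nhp6ab and 7 in WT. Among 21 genes for enzymes that act on wall polymers, with a median of 0.043, UTH1 of the SUN family was called lower at −1.03 (−1.19 to −0.86), with 431 counts over 10 nucleosomes in nhp6ab and 1147 over 9 in WT. Its upstream ratio was −2.34 and its ORF ratio −0.28. SUN4 of the same family was the highest of these genes at 0.41 (0.33 to 0.49), although its upstream ratio was −2.39.

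None of 12 genes of glucan and chitin synthesis was called, with a median of −0.0079. FKS1 (chromosome XII), for a glucan synthase subunit, was lowest at −0.30 (−0.34 to −0.26), and SKN1, for a protein of glucan assembly, highest at 0.15 (0.10 to 0.19). In the wall integrity pathway, whose sensors signal through protein kinase C, 2 of 13 genes were called lower. MID2 (chromosome XII), for such a sensor, stood at −0.97 (−1.05 to −0.89), or −0.44 by the mean, with 8 nucleosomes in nhp6ab and 12 in WT and an upstream ratio of −4.32. RLM1, for the transcription factor at the end of the pathway and named here after its value was seen, stood at −0.59 (−0.65 to −0.53), or −0.11 by the mean. PKC1 was highest at 0.13 (0.086 to 0.17).

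**Figure D5:**
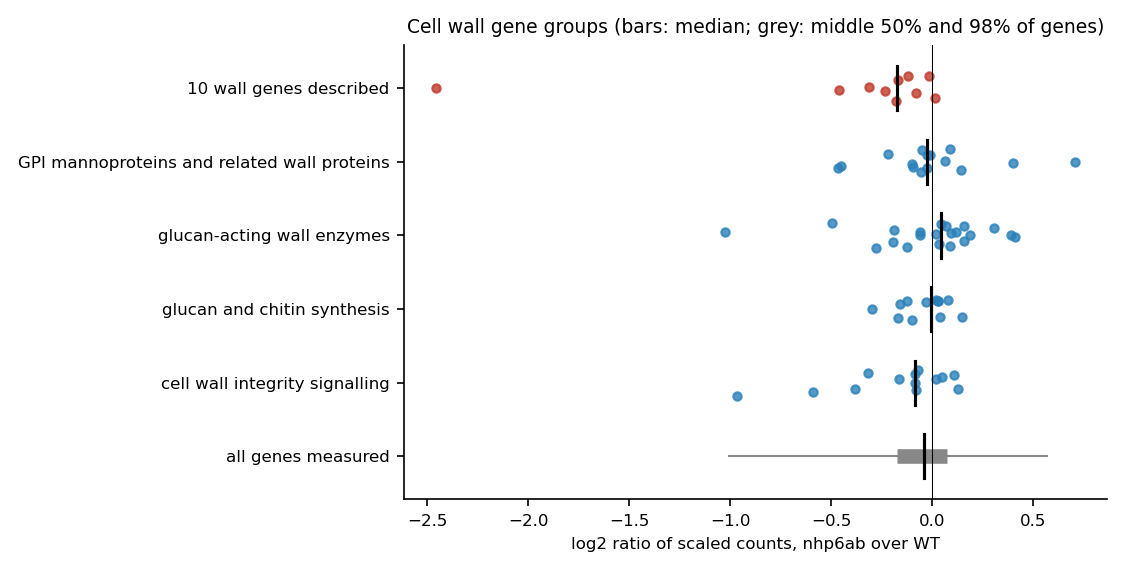
Log2 ratio over the gene window, nhp6ab over WT (horizontal axis), for the 10 wall genes, the 4 lists of other wall genes and all genes measured (vertical axis); points are genes, black bars medians, and the grey line and box the middle 98% and 50% of genes. CCW12 at −2.46 is the lowest point among the 10 genes and the 4 lists, though not among all genes, and the medians of the 4 lists lie between −0.086 and 0.043.

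The genes most like CCW12 were sought over 5698 other genes by the Euclidean distance of 3 values, the upstream ratio, the ORF ratio and the log2 WT level (mean count per nucleosome over the table's median). The nearest was HXT3, for a glucose transporter of a family with closely similar copies, so that its reads are placed with some uncertainty, at a distance of 0.89, with 360 counts over 5 nucleosomes in nhp6ab and 2059 over 12 in WT, an upstream ratio of −2.30 and an ORF ratio of −2.10. YLR111W followed at 1.18, but it overlaps the upstream window of CCW12 and shares nucleosomes with it. SPO24 (1.67), YIL054W (1.88) and the U3 snoRNA gene SNR17A (1.90) came next. SPO24 and SNR17A combined upstream ratios of −2.73 and −2.50 with ORF ratios of −0.74 and −0.52, whereas HXT3 had both parts lower than −2. By the mean count per nucleosome HXT3 stood at −0.87, with −2.30 upstream and 0.071 in the ORF, against −2.74 for the whole window of CCW12, so its low ORF sum went with fewer listed nucleosomes.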

How the data were processed

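Per the file headers, the authors deposited 1 table per genotype with a chromosome, start, end and read count per nucleosome. The values are whole numbers with different totals and were used as counts that were not normalized. FastQC, Bowtie and build R64 are named, without versions, in the submitters' processing notes. How nucleosomes were called, reads filtered and replicates combined is not given in the sources used here. Counts were scaled to the table totals. Each ratio has an exact conditional binomial 95% interval (Python 3.11.15, scipy 1.17.1), which reflects counting error alone. Spread between replicates does not enter it, since each genotype has 1 column of counts. PCR duplicates are not separate molecules, and any left in the counts would make the interval too narrow. A nucleosome at the median had a counting error of 5.31% in nhp6ab and 4.76% in WT. Overlapping intervals may count a read more than once, and an unlisted nucleosome is not a count of 0. Genes needed 100 counts over both tables and pairs 10, matched one to one by nearest midpoint within 50 bp. Positions of genes are those of RefSeq's R64 table, and systematic names gave the strand. Sequences were not analysed here.

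The members and lists were chosen with earlier results of these data known. Named were the 10 genes, of each list the gene with the highest and with the lowest ratio, PIR3, NHP6A, NHP6B and the 5 genes nearest to CCW12. Neighbouring genes and RLM1 fall outside this rule. WSC1 and DAN2 were matched through synonyms. The calculations were tested on simulated data.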

Additional observations from a re-analysis of the deposited data

How the results depend on the processing

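No paired analysis was possible because each genotype has a single column of counts. Leaving out a replicate was not possible for the same reason. CCW12 was called lower under all 10 alternatives, between −2.74 and −2.08. With the mean count per nucleosome 2 members were called lower, where 1.62% of all genes were. With any overlap of the window 3 were, and with intervals of 160 bp alone 4 lower and 1 higher, and no share over all genes was taken for these settings. With intervals of 160 bp alone, CWP1 stood at −1.24, TIP1 at −0.91, SED1 at −2.24 and PIR1 at 1.03, and CWP2 had no ratio. There 3 of 7 genes were lower upstream than in the ORF. The median over members was −0.10 with 500 bp upstream, −0.092 for ORFs, −0.32 with any overlap and −0.25 for matched nucleosomes, the last chosen after seeing the data. Matching within 25 bp left 56 pairs, 5 of them called lower, with no share over all pairs taken at that distance. Leaving out CCW12, also chosen later, left 8 called lower. Of 99 ratios of single genes under alternatives, 60 stayed within the counting interval and 39 lay outside it. The 60 include the unchanged values of CCW12 and CCW14 under other scaling totals and of all members under merging. CCW12, the 1 gene called, kept its sign, while 6 of the 9 others (CCW14, CWP1, TIP1, PIR1, HSP150 and GAS1) changed sign under some alternative. The cause of these shifts was not tested. Depth limits the CCW12 upstream nucleosomes most, with 1 to 27 counts in nhp6ab.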
